A study of Homo sapiens with 8 samples.

Results

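GRN163L, an inhibitor of telomerase, was set against vehicle in HEL cells, a human erythroleukaemia line. The comparison rests on 4 of the 8 expression arrays of the series: 2 arrays of cells given GRN163L alone and 2 control arrays. All 19181 probe sets that the platform annotation assigns to exactly 1 gene were taken, out of 33297 probe sets in the table, and the difference was read within each experiment and as the mean of both. The GRN163L cells received 20 µM for 48 h, and the control cells received DMSO only. The series also holds 2 arrays with GRN163L and LY2784544, a JAK2 inhibitor, together, and 2 arrays with 0.5 µM LY2784544 alone. The doses of the combination are not restated in the labels. Each treatment was made once in experiment 1 and once in experiment 2, so that every group has n = 2. From each culture, 150 ng of total RNA was amplified and labelled.

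Several features limit these cells as a model of telomerase inhibition. They are 1 cell line at 1 dose and 1 time. The labels used here describe no arm with a control oligonucleotide and do not say whether the GRN163L cells also received DMSO. The labels say no more of the 2 experiments than their order, so a p-value here speaks only of these few arrays. It sets a difference against their spread within groups, taken over all 4 groups in the fit to 8 arrays. The labelled cell type was set against markers. Of 14 genes listed for HEL, 9 had a 1-gene probe set, and their control means ran between 8.44 for EPOR, the erythropoietin receptor, and 11.70 for TFRC, the transferrin receptor. Among genes that mark T, B and NK cells, 11 of 20 lay under 5 in control, as did 12 of 19 markers of monocytes, macrophages and neutrophils and 8 of 16 of fibroblasts, endothelium and epithelium. The log2 signals of the lymphoid markers added up to 103.8 and 103.1 on the GRN163L arrays, against 103.8 and 106.8 on the control arrays. Such a sum of log2 values is not an amount of RNA.

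Telomerase extends chromosome ends with a reverse transcriptase, TERT, that copies a short template within its RNA subunit, TERC. GRN163L, also known as imetelstat, is a lipid-linked oligonucleotide complementary to that template, and it blocks the enzyme by occupying the site that telomeric DNA would bind. Blood cells other than stem, progenitor and some activated lymphoid cells hold little telomerase activity, whereas leukaemia lines commonly hold much of it.

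The response was small beside the spread between cultures. Values are log2 RMA signals (robust multi-array average), so a difference of 1 stands for a 2-fold ratio of signals. Across the 19181 probe sets the difference between GRN163L and control had a standard deviation of 0.250 in experiment 1 and 0.343 in experiment 2. The same probe sets differed by a standard deviation of 0.281 between the GRN163L arrays and of 0.297 between the control arrays. The median difference was 0.02 in experiment 1 and -0.01 in experiment 2, and the array medians were 6.08 and 6.09 with GRN163L, against 6.09 and 6.05 in control. Differences in experiment 1 and in experiment 2 correlated across probe sets with r = 0.140 (n = 19181), as a description of arrays that share no culture. Over the 9592 probe sets at or above the median level, r was 0.288.

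No probe set passed an adjusted p of 0.05 with limma, a linear model with moderated variances, fitted to all 8 arrays. The smallest adjusted p was 0.194. An unadjusted p below 0.05 was reached by 807 probe sets, which is 4.21% of those tested, 433 of them higher (2.26%) and 374 lower (1.95%) with GRN163L. That count depends on single arrays: it was 458 without the control array of experiment 2, 468 without the GRN163L array of experiment 2 and 1247 without the control array of experiment 1. With the experiment as a block it was 1303. When only the 4 GRN163L and control arrays were fitted, with 1 probe set per gene and only genes at or above the 30th percentile of level, 6 of 12570 genes passed (0.0477%): CST7 and MAPK4 rose, and MT1G, MT1X, H2BC13 and SOCS3 fell. That setting was chosen after seeing the data. A miss of the threshold with 2 arrays a group does not show that a gene did not change.

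In both experiments, 271 probe sets (1.41%) differed by at least 0.5 in the same direction. Of these, 127 (0.662%) were higher and 144 (0.751%) lower with GRN163L. They stand for 95 genes that were higher and 133 that were lower, and 19 of the lower genes encode replication-dependent histones. At a 2-fold difference in each experiment, 8 probe sets were higher (0.0417%) and 19 lower (0.0991%).

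**Figure D1:**
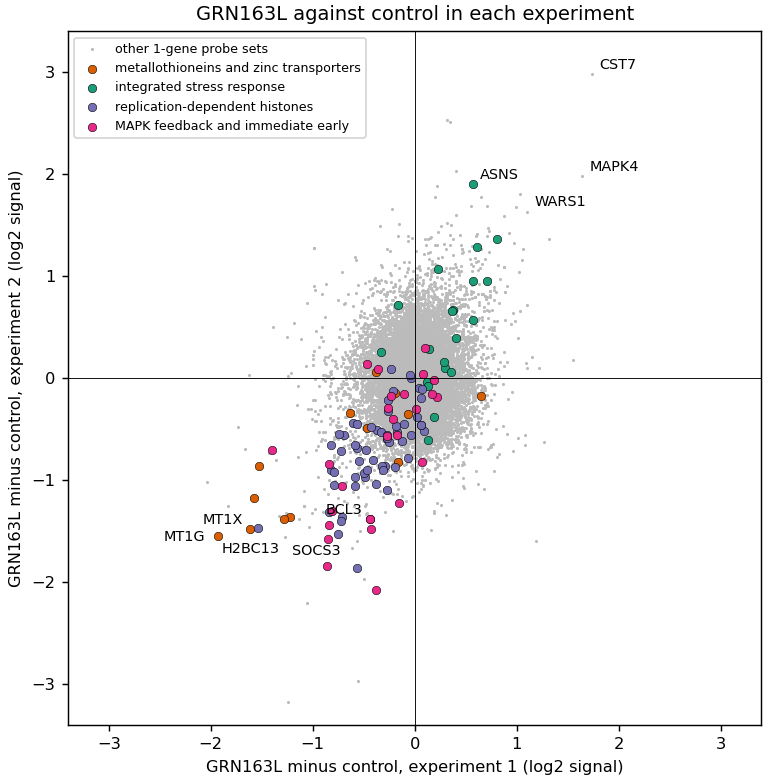
Difference between GRN163L and control in experiment 1 (horizontal axis, log2 signal) and experiment 2 (vertical axis, log2 signal) for the 19181 probe sets of 1 gene, with 4 gene lists coloured. Most probe sets form a cloud with little common direction (r = 0.140), while CST7 and MAPK4 lie far to the upper right and the metallothioneins MT1G and MT1X far to the lower left.

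The gene furthest above control was CST7, which encodes cystatin F, an inhibitor of lysosomal cysteine proteases in blood cells. Its signal was 9.06 and 9.57 with GRN163L, against 7.32 and 6.59 in control. Both GRN163L arrays lay above both control arrays, by 1.74 in experiment 1 and 2.98 in experiment 2 (mean 2.36, SE 0.69, limma adjusted p = 0.995 over 8 arrays and 0.0371 over 4 arrays). With LY2784544 alone CST7 was at 10.36 and 8.15, far apart for cultures of 1 group. MAPK4, an atypical MAP kinase, was at 7.65 and 7.40 with GRN163L, against 6.01 and 5.42 in control (mean difference 1.81, SE 0.30, adjusted p = 0.419 over 8 arrays and 0.0494 over 4 arrays). WARS1, the cytosolic tryptophanyl-tRNA synthetase, was at 10.84 and 10.94 with GRN163L, against 9.74 and 9.31 in control (1.365, SE 0.33, adjusted p = 0.848). For each of these genes the GRN163L and control arrays did not overlap. Such a separation is common with 2 arrays a group. Of all 19181 probe sets, 3365 separated with GRN163L higher and 2875 with GRN163L lower. Choosing genes by their differences in both experiments also favours it, so here and below it describes the arrays and is not separate support.

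Among the transcripts without an established protein product, SLC22A20P, a pseudogene of an organic anion transporter, was at 6.12 and 6.34 with GRN163L, against 4.80 and 4.98 in control (1.34, SE 0.18, adjusted p = 0.210). The long noncoding RNA LINC03030 was at 6.26 and 6.35 with GRN163L, against 5.29 and 5.03 in control (1.145, SE 0.16, adjusted p = 0.210). RPS20P27, a pseudogene of a ribosomal protein, was at 8.68 and 8.75 with GRN163L, against 7.84 and 7.78 in control (0.905, SE 0.15, adjusted p = 0.415). The arrays of a group lay close together in each case. ANKRD20A11P (1.16) and LINC00965 (1.17) belong to families with near-identical copies, so which locus gave their signal is uncertain.

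The other genes that led the higher side were FHDC1 (1.105), RGS2 (1.415), HSPA6 (1.335), MYO15B (0.90) and TRA2A. FHDC1, a formin that acts on actin and microtubules, was at 5.78 and 5.86 with GRN163L, against 4.73 and 4.70 in control. RGS2, which speeds the shut-off of G protein signalling, was at 9.36 and 8.16 with GRN163L, against 8.33 and 6.36 in control. HSPA6, a strictly inducible HSP70, was at 8.53 and 7.0 with GRN163L, against 7.54 and 5.32 in control. RGS2 and HSPA6 were higher within each experiment, but their groups overlapped, because both genes were lower on both arrays of experiment 2. TRA2A, a splicing regulator, was represented by a probe set at 9.89 and 10.19 with GRN163L, against 9.68 and 9.69 in control, and another of its probe sets differed by 1.03. NIBAN1, just outside the 12 that led, was higher by 0.88 and 1.59.

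On the lower side, the metallothioneins led, and they are described below. SOCS3, a feedback inhibitor induced by STAT3 and STAT5, was at 7.02 and 6.85 with GRN163L, against 8.29 and 8.41 in control (-1.415, SE 0.17, adjusted p = 0.194 over 8 arrays and 0.0494 over 4 arrays). TNFRSF9, the costimulatory receptor 4-1BB, was at 5.0 and 5.16 with GRN163L, against 6.26 and 6.48 in control (-1.29, SE 0.14, adjusted p = 0.194). RELN, the extracellular glycoprotein reelin, was at 7.32 and 7.16 with GRN163L, against 8.65 and 8.51 in control (-1.34, SE 0.64, adjusted p = 0.995 over 8 arrays and 0.0545 over 4 arrays). Its SE takes in the combination arrays, which lay far apart at 6.31 and 8.73. In SOCS3, TNFRSF9 and RELN every GRN163L array lay at least 1.26 below the control array of its experiment. MGAT4A, a glycosyltransferase of the Golgi, was at 5.65 and 5.47 with GRN163L, against 6.78 and 6.85 in control (-1.255). NCAM1, the adhesion molecule CD56, was at 5.11 and 5.06 with GRN163L, against 6.20 and 6.17 in control (-1.10, SE 0.16, adjusted p = 0.252). LIMD1-AS1, an antisense transcript, was at 3.06 and 3.30 with GRN163L, against 4.89 and 4.56 in control (-1.545, SE 0.18, adjusted p = 0.194), close to the floor of the arrays.

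HBZ, the embryonic zeta-globin that HEL cells make, was the most variable of the lower genes. Its brighter probe set read 7.86 and 6.57 with GRN163L, against 8.42 and 9.54 in control, a difference of -0.56 in experiment 1 and -2.97 in experiment 2. The dimmer probe set read 5.35 and 4.33 with GRN163L, against 6.59 and 7.51 in control. Both probe sets were lower in each experiment, with a size that differed several-fold between experiments. The TARP probe sets, just outside the lower genes that led, differed by -1.09 and -1.26.

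**Figure D2:**
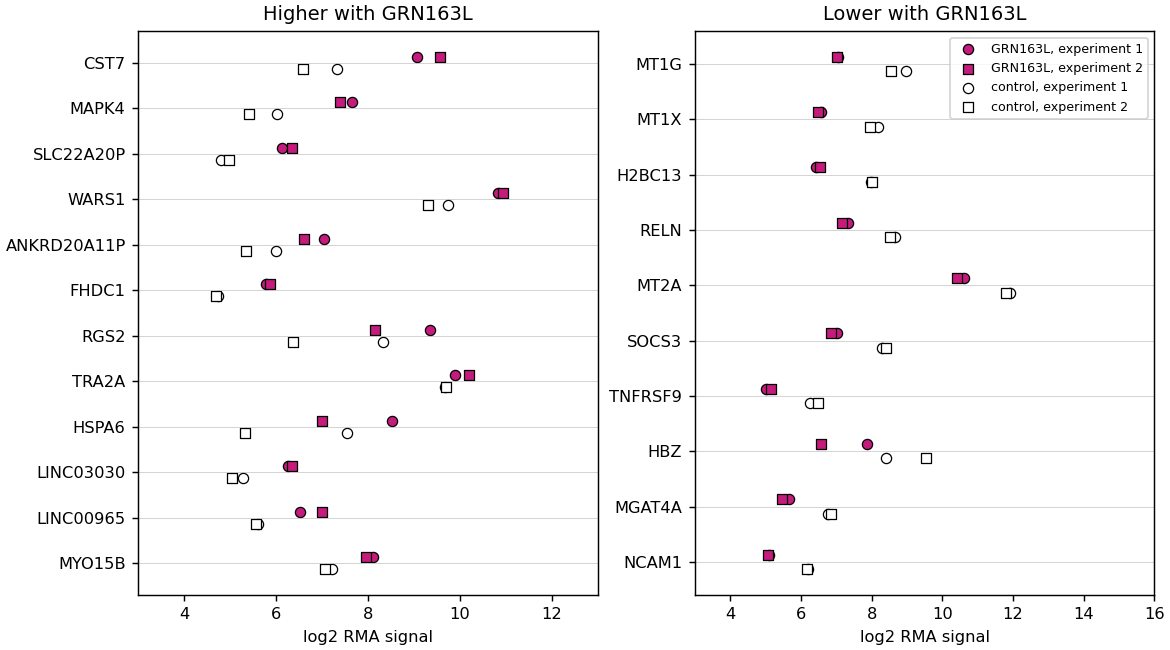
log2 RMA signal (horizontal axis) of the genes with the largest consistent difference, GRN163L in magenta and control in white, with circles for experiment 1 and squares for experiment 2. Each gene is shown by its brightest probe set. The groups separate for CST7, MAPK4 and WARS1 among higher genes and for MT1G, MT1X, H2BC13 and SOCS3 among lower ones, but overlap for RGS2 and HSPA6.

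The RNA that GRN163L is complementary to was itself lower. TERC was at 8.94 and 8.57 with GRN163L, against 9.58 and 9.26 in control. Both GRN163L arrays lay below both control arrays, by -0.64 and -0.69 (mean -0.665, SE 0.23, limma unadjusted p = 0.0215, adjusted p = 0.995). The same RNA was at 7.95 and 8.43 with the combination, against 9.78 and 9.36 with LY2784544 alone. TERT, the catalytic subunit, was at 4.87 and 4.40 with GRN163L, against 4.80 and 4.98 in control (-0.255), near the lower end of the signals. JAK2, the kinase inhibited by the other agent, was at 10.71 and 10.72 with GRN163L, against 10.83 and 10.05 in control (0.275, and -0.115 without the control of experiment 2). TERT and JAK2 each had overlapping groups.

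Other genes of telomerase assembly and TERC processing varied in both directions. Of 19 probe sets, 4 were higher and 6 lower in both experiments, where 25.6% of all probe sets were higher and 22.4% lower. Their median was -0.13, and -0.06 without the GRN163L array of experiment 1 or without the control of experiment 2, and -0.08 without the GRN163L array of experiment 2. RUVBL2, an ATPase needed to assemble the enzyme, was at 8.66 and 8.69 with GRN163L, against 9.17 and 9.42 in control (-0.62, adjusted p = 0.995). DKC1, which encodes dyskerin, the pseudouridine synthase that binds TERC, was at 9.42 and 9.69 with GRN163L, against 9.37 and 9.28 in control (0.23). RUVBL2 separated the groups by more than 0.5 in each experiment, and DKC1 did not. Among 23 probe sets of shelterin and telomere end genes, 4 were higher and 7 lower in both experiments. Their median of 0.005 turned to -0.085 without the GRN163L array of experiment 2 and to -0.11 without the control of experiment 2, and was 0.01 without the control of experiment 1. STN1, part of the complex that fills in the C-rich telomeric strand, was at 6.57 and 6.73 with GRN163L, against 6.36 and 6.05 in control (0.445, adjusted p = 0.995). That list also held TPP1, a symbol that now belongs to a lysosomal peptidase, while the shelterin protein of that name is encoded by ACD (-0.26). Of the p53 target probe sets, 6 of 23 were higher in both experiments, a share near the 25.6% of all probe sets, and 2 were lower. Their median of -0.005 lay between 0.01 and 0.085 as each of the 4 arrays was left out.

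Metallothioneins are small cysteine-rich proteins that bind zinc and copper. Their genes lie in a cluster on chromosome 16 and are induced by the zinc sensor MTF1, which binds metal response elements in their promoters. MT1G was at 7.05 and 7.01 with GRN163L, against 8.98 and 8.56 in control (-1.74, SE 0.24, limma adjusted p = 0.210 over 8 arrays and 0.0371 over 4 arrays). MT1X was at 6.56 and 6.47 with GRN163L, against 8.18 and 7.95 in control (-1.55, SE 0.24, adjusted p = 0.355 and 0.0371). MT2A, the brightest member, was at 10.63 and 10.43 with GRN163L, against 11.91 and 11.81 in control (-1.33, SE 0.28, adjusted p = 0.666), and its other probe sets differed by -1.29 and -1.38. All GRN163L arrays lay below all control arrays for these genes, and the GRN163L arrays lay close together. MT1E was at 5.95 and 5.84 with GRN163L, against 7.48 and 6.70 in control (-1.195).

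Over the list of 9 metallothioneins and 2 zinc transporters, 11 of 13 probe sets were lower in both experiments (22.4% of all probe sets were) and 0 were higher (25.6% of all). A difference of at least 0.5 in both experiments was seen in 6 of 13, against 0.751% of all probe sets on the lower side. The several probe sets of MT2A, which is 1 gene, are all among these 6. The list's median was -0.49, against 0.01 for all probe sets. This list and the others were chosen with earlier results of these data known, so such comparisons describe them and do not test them. The zinc importer SLC39A10 was lower by -0.19 and -0.15, and the exporter SLC30A1, also induced by MTF1, differed by -0.38 and 0.06. MT3, which is known mainly from brain, differed by 0.65 and -0.18. Members of the family are near-identical in sequence, so probes may share signal between them, and the members are not independent readings.

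The promoters of MT1X and MT2A are shown because these genes led the lower side and because they carry the element that MTF1 reads. The sequences are the 250 bases before the start in RefSeq (GRCh38.p14), plus strand, at chr16:56682220-56682469 for MT1X and chr16:56608334-56608583 for MT2A. Capitals mark matches on either strand to TGCACNC or TGCGCNC, the core letters of the metal response element.
MT1X: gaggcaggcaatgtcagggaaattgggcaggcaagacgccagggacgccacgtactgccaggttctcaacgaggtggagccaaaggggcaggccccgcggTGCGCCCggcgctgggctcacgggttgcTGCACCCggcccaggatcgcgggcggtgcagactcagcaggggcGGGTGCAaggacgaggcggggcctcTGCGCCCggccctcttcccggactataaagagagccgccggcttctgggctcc
MT2A: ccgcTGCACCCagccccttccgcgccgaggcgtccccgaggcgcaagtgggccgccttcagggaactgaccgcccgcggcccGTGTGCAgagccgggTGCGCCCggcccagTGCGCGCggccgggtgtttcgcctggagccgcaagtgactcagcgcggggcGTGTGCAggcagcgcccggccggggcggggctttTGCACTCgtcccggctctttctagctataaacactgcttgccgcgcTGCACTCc
MT1X holds 4 matches and MT2A holds 7. The promoter table held 4 metallothioneins, and all 4 (with MT1H at 8 and MT1B at 3) had at least 3 matches, against 1.58% of 35116 promoters, while 24.8% of these had at least 1. A match describes letters and not binding.

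The integrated stress response raises the translation of the factor ATF4 when a kinase phosphorylates eIF2alpha, and ATF4 in turn induces genes for amino acid synthesis, transport and tRNA charging. SLC7A11, the cystine importer, was at 9.66 and 10.19 with GRN163L, against 8.85 and 8.83 in control (1.085, SE 0.20, limma adjusted p = 0.617). ASNS, asparagine synthetase, was at 8.11 and 8.59 with GRN163L, against 7.54 and 6.69 in control (1.235, SE 0.34, adjusted p = 0.995). DDIT4, an inhibitor of mTORC1, was at 9.57 and 9.45 with GRN163L, against 8.96 and 8.17 in control (0.945, SE 0.23, adjusted p = 0.924). In each of these genes both GRN163L arrays exceeded both control arrays, and the difference was larger in experiment 2. JDP2, a repressor of the AP-1 family, was higher by 0.71 and 0.95, and SESN2, a leucine sensor of the sestrin family, by 0.57 and 0.95.

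Of 20 probe sets of the list, 14 were higher in both experiments and 0 lower, against 25.6% and 22.4% of all probe sets. At least 0.5 above control in both were 6, against 0.662% of all, and the median was 0.34. That list was chosen with earlier results of these data known, so these shares describe it and do not test it. The factor ATF4 itself, named here after its values were seen, was at 10.82 and 10.69 with GRN163L, against 10.52 and 10.59 in control (0.20), and its other probe set differed by -0.095. DDIT3, which encodes CHOP and was named in the same way, was higher by 0.40 and 0.39, whereas ATF3 differed by 0.12 and -0.04 and TRIB3 by 0.36 and 0.06. Genes of the unfolded protein response of the endoplasmic reticulum had a median of 0.07.

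Enzymes of serine, asparagine and one-carbon synthesis were among those that differed most. PSPH, the last enzyme of serine synthesis, was at 7.88 and 8.55 with GRN163L, against 7.23 and 6.78 in control (1.21, SE 0.25, adjusted p = 0.631). PSAT1, the transaminase before it, was at 9.51 and 9.97 with GRN163L, against 9.19 and 8.45 in control (0.92, SE 0.26, adjusted p = 0.995). For both genes the groups did not overlap. PHGDH, the first enzyme of the pathway, was at 10.77 and 11.18 with GRN163L, against 10.54 and 9.75 in control (0.83). CBS, which condenses serine with homocysteine, was at 9.72 and 10.33 with GRN163L, against 9.32 and 8.30 in control (1.215). Both were named after their values were seen, and both differed far more in experiment 2. MTHFD2, a mitochondrial folate enzyme, differed by 0.455. Of the 15 probe sets, 11 were higher and 2 lower in both experiments, where 25.6% and 22.4% of all probe sets were. At least 0.5 above control in both were 2, against 0.662% of all. The list's median was 0.28 in experiment 1 and 0.69 in experiment 2. SHMT1 and ALDH18A1 were the genes lower in both, by -0.255 and -0.225.

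Among amino acid transporters, SLC1A4 was at 9.17 and 9.49 with GRN163L, against 8.63 and 8.32 in control (0.855, SE 0.22, adjusted p = 0.995). SLC6A9, the glycine transporter, was at 8.41 and 8.61 with GRN163L, against 8.05 and 7.88 in control (0.545). The control arrays lay below the GRN163L arrays for both genes. Over 11 transporter probe sets the median was 0.165, with 6 higher and 2 lower in both experiments. Over 20 cytosolic aminoacyl-tRNA synthetase probe sets it was 0.205, with 13 higher and 1 lower. Of all probe sets, 25.6% were higher and 22.4% lower in both. Without the GRN163L array of experiment 2 these medians were 0.085 and 0.125. After WARS1, CARS1 (0.615), GARS1 (0.445), AARS1 (0.44) and MARS1 (0.42) differed most among the synthetases, and none passed the adjusted threshold.

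The promoters of CHAC1 and ASNS are shown because both are textbook ATF4 targets with a match to the ATF4 element in the window. They are the 250 bases before a RefSeq start (GRCh38.p14), at chr15:40953221-40953470 on the plus strand for CHAC1 and chr7:97872409-97872658 on the minus strand for ASNS, which has 2 windows in the table, of which the one with a match is shown. Capitals mark the match on either strand to the element, TGATGNAA.
CHAC1: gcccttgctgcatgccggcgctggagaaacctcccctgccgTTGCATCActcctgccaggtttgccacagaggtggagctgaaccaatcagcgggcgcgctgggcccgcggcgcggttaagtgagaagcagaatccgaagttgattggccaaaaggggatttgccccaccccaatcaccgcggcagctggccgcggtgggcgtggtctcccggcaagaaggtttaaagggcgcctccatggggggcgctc
ASNS: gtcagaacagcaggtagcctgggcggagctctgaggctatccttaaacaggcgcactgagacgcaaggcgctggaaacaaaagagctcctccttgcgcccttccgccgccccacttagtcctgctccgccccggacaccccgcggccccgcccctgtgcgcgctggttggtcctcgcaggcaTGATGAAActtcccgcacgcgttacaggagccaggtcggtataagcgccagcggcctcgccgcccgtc
CHAC1, a glutathione-degrading enzyme named after its values were seen, was at 9.43 and 9.88 with GRN163L, against 9.05 and 9.21 in control (0.525). The element was present in 5 of 29 promoter windows of the integrated stress response list, 2 of 15 of the serine and one-carbon list and 3 of 21 of the synthetases, against 3.14% of all promoters. Absence of a match says only that these letters are not in this window.

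**Figure D3:**
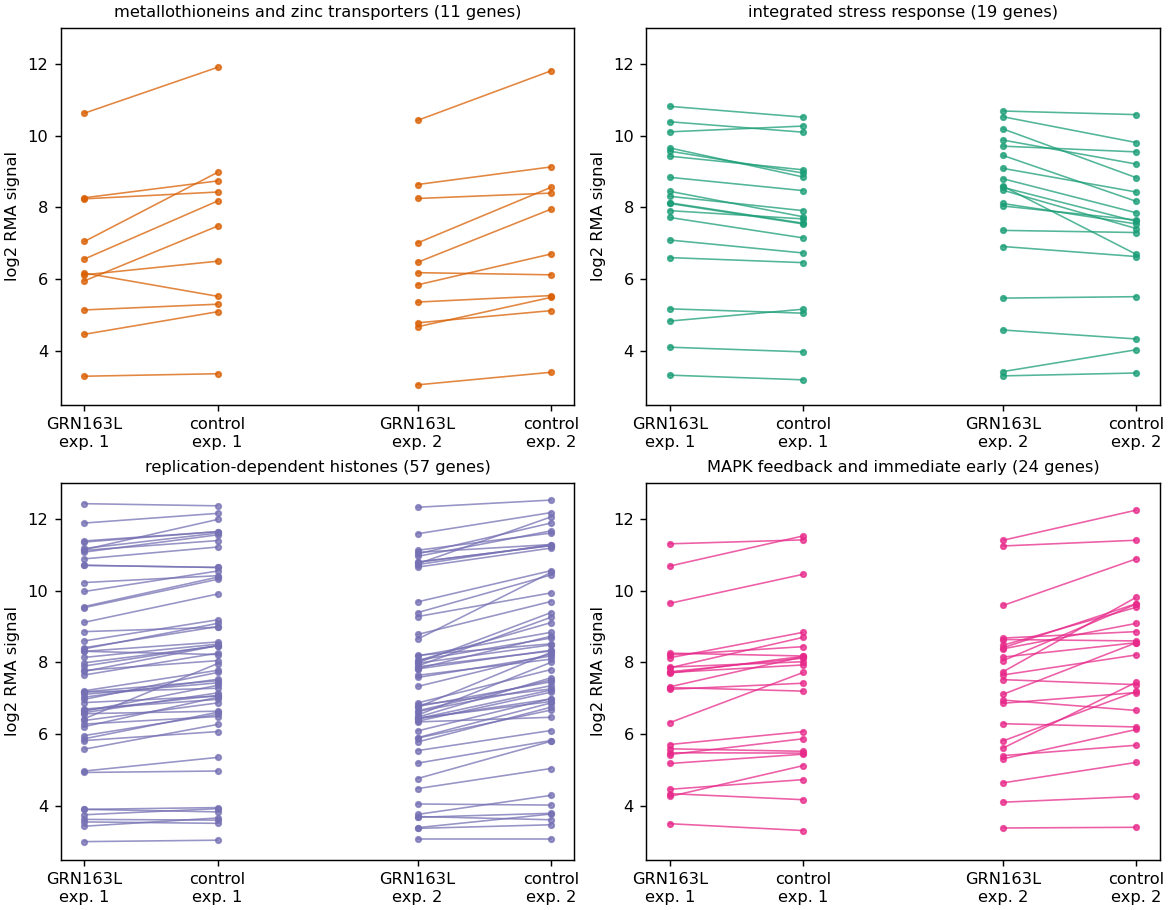
log2 RMA signal (vertical axis) of every measured gene of 4 lists, with a line joining the GRN163L and the control array of each experiment. Lines climb toward control for most metallothioneins, histones and MAPK genes and descend toward control for most integrated stress response genes, and they are steeper in experiment 2 for many members.

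Replication-dependent histone genes are transcribed in S phase, when new DNA is packed, and most lie in a cluster on chromosome 6. All 57 measured genes had a lower mean with GRN163L, 47 of them in both experiments (22.4% of all probe sets were) and 0 higher in both, with a median of -0.53. Experiment 2 had the lower median, -0.63, and experiment 1 had -0.33. At least 0.5 in both experiments was reached by 19, against 0.751% of all probe sets, and 24 had an unadjusted limma p below 0.05, against 1.95% of all on the lower side. The classes were alike: the median was -0.595 for 5 genes of H1, -0.60 for 14 of H2A, -0.52 for 16 of H2B, -0.525 for 9 of H3 and -0.43 for 13 of H4. Several members are near-identical (H4C14 and H4C15 had the same values on every array), so the genes are not separate readings. The list too was chosen with earlier results of these data known, so its counts describe and do not test. In bulk RNA, fewer cells in S phase and less histone RNA per cell cannot be told apart.

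H2BC13 was the histone gene furthest from control, at 6.43 and 6.53 with GRN163L, against 7.97 and 8.0 in control (-1.505, SE 0.40, limma adjusted p = 0.995 over 8 arrays and 0.0371 over 4 arrays). H2BC12 was at 9.53 and 9.39 with GRN163L, against 10.32 and 10.44 in control (-0.92, SE 0.16, adjusted p = 0.539). H3C3 was at 6.21 and 6.09 with GRN163L, against 7.03 and 6.99 in control (-0.86, SE 0.16, adjusted p = 0.617). Arrays of 1 group lay close together in these genes, and the groups did not overlap. The histone genes with means nearest to control, H1-1, H2BC1, H3C6 and H2BC6, had signals between 3.0 and 4.05, at the bottom of the scale. H1-4, a bright linker histone gene, was at 12.43 and 12.33 with GRN163L, against 12.37 and 12.53 in control (-0.07).

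Other proliferation genes differed less. Of 37 DNA replication probe sets, 16 were lower and 2 higher in both experiments, where 22.4% and 25.6% of all probe sets were. By as much as 0.5 in both, 0 differed, and the list's median was -0.11. Its sign turned to 0.10 when the control of experiment 2 was left out, and it was -0.285 without the control of experiment 1, -0.23 without GRN163L of experiment 2 and -0.005 without GRN163L of experiment 1. TK1, a thymidine kinase of S phase, was at 10.09 and 10.16 with GRN163L, against 10.35 and 10.91 in control (-0.505). MCM7, part of the replicative helicase, differed by -0.305 and RFC4, part of the clamp loader, by -0.32. Of 23 G2 and mitosis probe sets, 12 were lower and 1 higher in both experiments, with a median of -0.205 (-0.115 without the control array of experiment 1). CCNB1, the mitotic cyclin, was at 8.74 and 8.76 with GRN163L, against 9.11 and 9.10 in control (-0.355). None of these genes had an unadjusted p below 0.05.

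Genes that growth factor signalling induces through ERK lay mostly below control. Of 27 probe sets listed for MAPK feedback or immediate early response, 18 were lower and 2 higher in both experiments. Over all probe sets, 22.4% were lower and 25.6% higher in both. Lower by at least 0.5 in both were 7, against 0.751% of all, and the list's median was -0.375. Taken once per gene, 16 of 24 were lower and 2 higher in both. ETV4, an ETS factor downstream of ERK, was at 7.32 and 7.11 with GRN163L, against 8.16 and 8.55 in control (-1.14, SE 0.25, limma adjusted p = 0.673). JUNB, an AP-1 subunit, was at 9.65 and 9.59 with GRN163L, against 10.46 and 10.89 in control (-1.055, SE 0.29, adjusted p = 0.995). ETV5 was at 8.13 and 8.48 with GRN163L, against 8.84 and 9.54 in control (-0.885), and in all 3 genes the groups did not overlap. IER2, an immediate early gene, was at 7.85 and 8.05 with GRN163L, against 8.70 and 9.63 in control (-1.215). DUSP5, a nuclear ERK phosphatase, was at 7.74 and 7.74 with GRN163L, against 8.12 and 9.82 in control (-1.23).

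Control arrays differed from each other in this list. DUSP5 and IER2 were much higher in the control of experiment 2 than in that of experiment 1, and so was IER3, at 5.43 and 5.81 with GRN163L, against 5.87 and 7.19 in control. Leaving out the control of experiment 2 gave a list median of -0.15, leaving out that of experiment 1 gave -0.76, and leaving out the GRN163L array of experiment 2 gave -0.565. The part of this difference between controls in the list's result was not tested.

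JAK-STAT and NF-kB targets were led by a few genes. After SOCS3, SOCS1, a related feedback inhibitor, was at 7.05 and 6.84 with GRN163L, against 7.80 and 7.23 in control (-0.57, adjusted p = 0.995), and LRRC32 differed by -0.39. IRF1, an interferon regulatory factor, went the other way, at 8.32 and 8.54 with GRN163L, against 7.85 and 8.10 in control (0.455, adjusted p = 0.995), with no overlap. Over 23 JAK-STAT probe sets, 12 were lower and 5 higher in both experiments, and the median of -0.195 came to -0.025 without the control of experiment 2 and to -0.13 without the GRN163L array of experiment 2. BCL3, a nuclear partner of NF-kB, was at 7.72 and 7.57 with GRN163L, against 8.70 and 8.85 in control (-1.13, SE 0.14, adjusted p = 0.194). Its groups were about 1 apart and did not overlap. CXCL3, a neutrophil chemokine, was at 5.52 and 5.57 with GRN163L, against 5.86 and 6.68 in control (-0.725). Over 28 NF-kB and inflammatory probe sets, 19 were lower and 2 higher in both experiments, with a median of -0.39 (-0.2325 without the control array of experiment 2). TNF and IER3 each have several near-identical probe sets there. Taken once per gene, 15 of 23 were lower and 1 higher in both. Over all probe sets, 22.4% were lower and 25.6% higher in both.

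Genes of hypoxia and glycolysis were lower by small amounts. Of 32 probe sets, 24 were lower and 1 higher in both experiments, where 22.4% and 25.6% of all probe sets were. But only 1 reached 0.5 in both, and the median was -0.26. PFKFB3, which makes the activator of phosphofructokinase, was at 7.63 and 7.69 with GRN163L, against 7.95 and 8.38 in control (-0.505, limma adjusted p = 0.995). ENO2, an enolase, was at 9.75 and 9.44 with GRN163L, against 10.15 and 9.97 in control (-0.465). Groups did not overlap for either gene. The list's median was -0.0975 without the GRN163L array of experiment 2 and -0.1475 without the control array of experiment 1.

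Cholesterol synthesis genes lay above control in experiment 1, with a median difference of 0.35, while experiment 2 gave -0.045. CYP51A1, the lanosterol demethylase, was at 10.13 and 10.29 with GRN163L, against 9.35 and 9.43 in control (0.82, SE 0.34, adjusted p = 0.995). LSS, lanosterol synthase, was at 10.05 and 9.73 with GRN163L, against 8.90 and 9.52 in control (0.68). CYP51A1 was higher by a like amount in both experiments, while LSS differed by 1.15 in experiment 1 and 0.21 in experiment 2. Of 18 probe sets, 8 were higher and 0 lower in both, where 25.6% and 22.4% of all probe sets were. The median of 0.145 was 0.065 without the GRN163L array of experiment 1 and 0.0675 without the control array of experiment 1. It was 0.2225 without the GRN163L array of experiment 2 and 0.3675 without the control array of experiment 2.

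Among NRF2 targets the members divided. SLC7A11, which is also an ATF4 target, was higher, and GSTP1, a glutathione transferase, was at 8.22 and 8.01 with GRN163L, against 9.26 and 9.47 in control (-1.25, SE 0.39, limma adjusted p = 0.995). HMOX1, heme oxygenase, was at 5.77 and 5.75 with GRN163L, against 6.31 and 6.50 in control (-0.645), and TXN, thioredoxin, at 7.70 and 7.88 with GRN163L, against 8.39 and 8.55 in control (-0.68). The 3 lower genes had no overlap between groups, a separation that 2875 of all 19181 probe sets showed on the lower side. Of 19 probe sets, 10 were lower and 4 higher in both experiments, where 22.4% and 25.6% of all probe sets were. The list's median was -0.22 (-0.09 without the control array of experiment 1).

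Lineage genes differed little as lists. Globin and heme synthesis genes had a median of -0.045, with 6 probe sets of 19 higher and 7 lower in both experiments, and megakaryocyte and platelet genes had a median of -0.06, with 2 of 23 higher and 8 lower. Over all probe sets, 25.6% were higher and 22.4% lower in both. The globin median was 0.135 without the GRN163L array of experiment 2, 0.14 without the control of experiment 1, -0.26 without the GRN163L array of experiment 1 and -0.075 without the control of experiment 2. The megakaryocyte median was 0.01 without the GRN163L array of experiment 2 and -0.125 without the control of experiment 2. GP6, the platelet collagen receptor, was at 7.64 and 7.83 with GRN163L, against 7.86 and 8.57 in control (-0.48, adjusted p = 0.995). SLC25A38, the mitochondrial glycine carrier of heme synthesis, was at 8.17 and 8.14 with GRN163L, against 7.83 and 7.53 in control (0.475). The GATA1 groups overlapped, at 10.68 and 10.23 with GRN163L, against 10.70 and 10.29 in control. Interferon-stimulated genes had a median of 0.095, with 11 of 30 higher and 5 lower in both experiments, beside the same background shares. That median was 0.0525 without the control of experiment 2. IRF9, an interferon regulatory factor, was at 7.88 and 8.05 with GRN163L, against 7.40 and 7.15 in control (0.69, SE 0.17, adjusted p = 0.887).

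**Figure D4:**
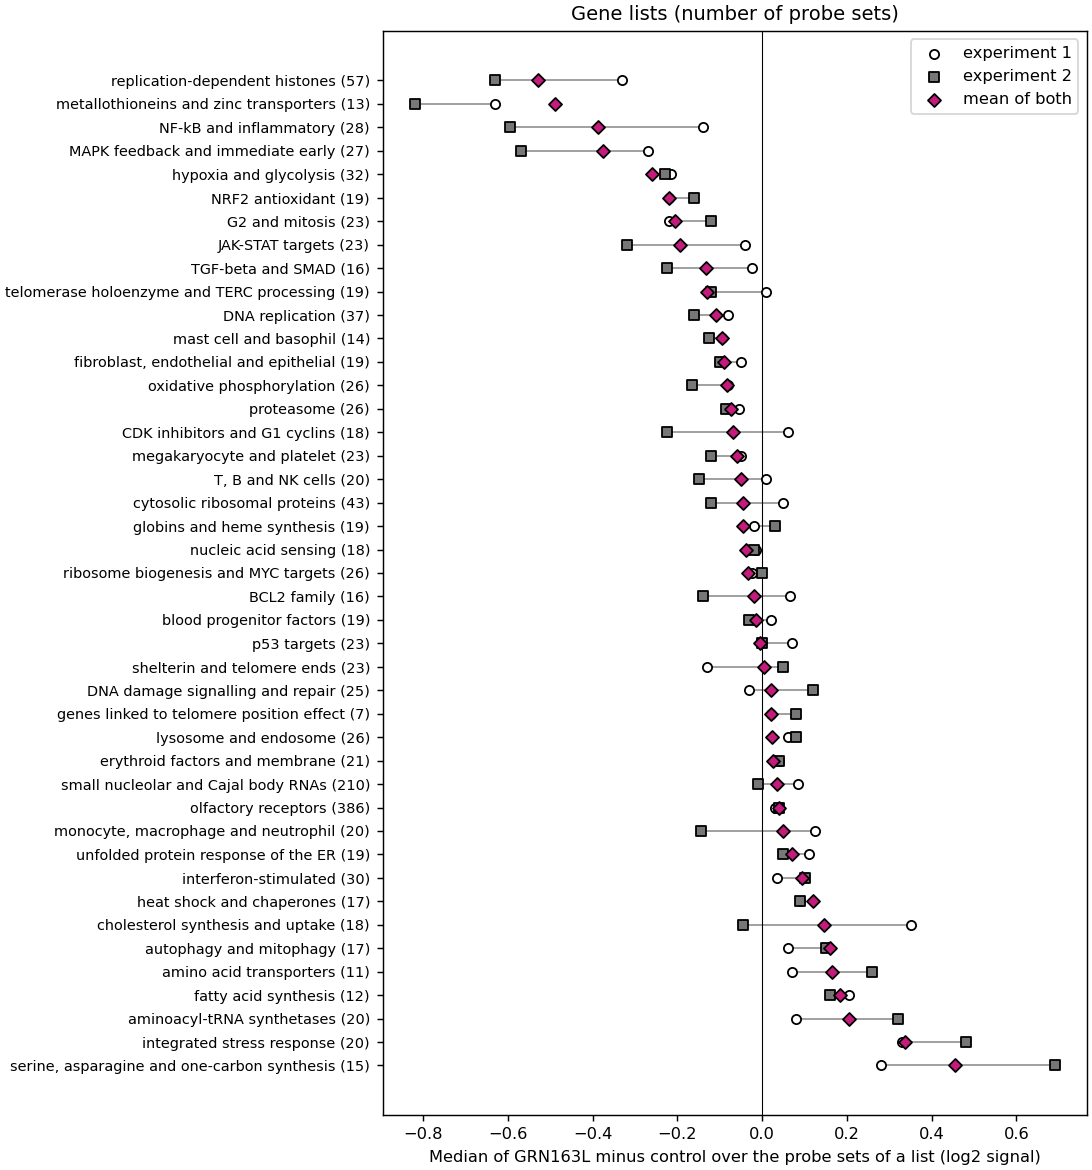
Median difference between GRN163L and control over the probe sets of each gene list (horizontal axis, log2 signal), with white circles for experiment 1, grey squares for experiment 2 and magenta diamonds for the mean of both. Histones (-0.53) and metallothioneins (-0.49) lie lowest, serine and one-carbon synthesis (0.455) and the integrated stress response (0.34) highest, and most lists lie near 0. The lists were chosen with earlier results of these data known.

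The other pair of groups, the combination and LY2784544 alone, also differs by GRN163L and shares no array with GRN163L and control. Reading it so takes the doses of the combination to equal those of the single agents. Across the 19181 probe sets the differences of the 2 pairs correlated with r = 0.416, as a description of libraries prepared in the same experiments. Of the 127 probe sets higher by at least 0.5 with GRN163L, 97 (76.4%) were also higher in both experiments with the combination than with LY2784544, and 13 (10.2%) were lower. Of the 144 lower ones, 110 (76.4%) were lower in both and 9 (6.25%) higher. Over all probe sets, 33.3% were higher and 32.2% lower in both with the combination than with LY2784544. These probe sets are not separate readings: 20 of the 127 belong to LINC00965, and 19 of the lower genes are histones. Of the 12 genes that led the higher side, each taken once, 7 were higher in both and 3 lower. These 3 were CST7 (-0.95 and -0.04), RGS2 (mean -0.655) and WARS1 (mean -0.175). Of the 10 that led the lower side, 7 were lower in both and 2 higher, MGAT4A (mean 0.60) and NCAM1 (mean 0.425).

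Histone genes were lower beside LY2784544 as well. The list's median was -0.515 between the combination and LY2784544. In both experiments 50 of 57 genes were lower, where 32.2% of all probe sets were. SOCS3 was at 5.23 and 5.58 with the combination, against 7.35 and 7.10 with LY2784544 (-1.82). MAPK4 was at 8.38 and 7.49 with the combination, against 6.29 and 6.35 with LY2784544 (1.615). ETV4 was at 5.50 and 4.94 with the combination, against 8.26 and 7.78 with LY2784544 (-2.80). The 3 genes differed in the same direction as between GRN163L alone and control, and GSTP1 did too (-2.745).

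Metallothioneins varied in the second pair. MT1G was at 6.92 and 7.48 with the combination, against 7.02 and 7.47 with LY2784544 (-0.045), so that all 4 of these arrays lay near the GRN163L arrays and below the control arrays. The interaction, which is the difference beside LY2784544 minus the difference without it, was 1.695 for MT1G (SE 0.34, limma adjusted p = 0.561). MT2A was at 9.95 and 10.88 with the combination, against 10.83 and 11.20 with LY2784544 (-0.60), lower in both experiments. Of the 11 genes of the list, 5 were lower and 2 higher in both experiments with the combination than with LY2784544. The shares over all probe sets were 32.2% and 33.3%. The list had an array median of 6.17 and 6.18 with GRN163L, 6.18 and 6.40 with the combination, 6.02 and 6.14 with LY2784544, and 7.48 and 6.70 in control.

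ASNS was at 8.28 and 7.87 with the combination, against 9.14 and 8.45 with LY2784544 (-0.72), the opposite of its difference from control (interaction -1.955, SE 0.48, adjusted p = 0.850). DDIT4 was at 8.64 and 8.74 with the combination, against 9.43 and 9.49 with LY2784544 (-0.77, interaction adjusted p = 0.518). WARS1 was at 11.17 and 10.38 with the combination, against 11.36 and 10.54 with LY2784544 (-0.175). ALDH1L2, a mitochondrial folate enzyme named after its values were seen, was higher in both pairs. It was at 6.44 and 6.79 with GRN163L, against 6.18 and 5.30 in control (0.875). With the combination it was at 6.95 and 6.27, against 5.91 and 4.24 with LY2784544 (1.535). Both differences were larger in experiment 2. The integrated stress response list had an array median of 8.13 and 8.56 with GRN163L, 8.28 and 8.09 with the combination, 8.96 and 8.45 with LY2784544, and 7.68 and 7.61 in control. Of its 19 genes, 13 were lower and 3 higher in both experiments with the combination than with LY2784544. The shares over all probe sets were 32.2% and 33.3%. The interaction passed the adjusted threshold for 6 of 19181 probe sets (0.0313%; 721, or 3.76%, had an unadjusted p below 0.05), none of them of a gene named in these lists, so a dependence on LY2784544 is not shown for any of the genes above.

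**Figure D5:**
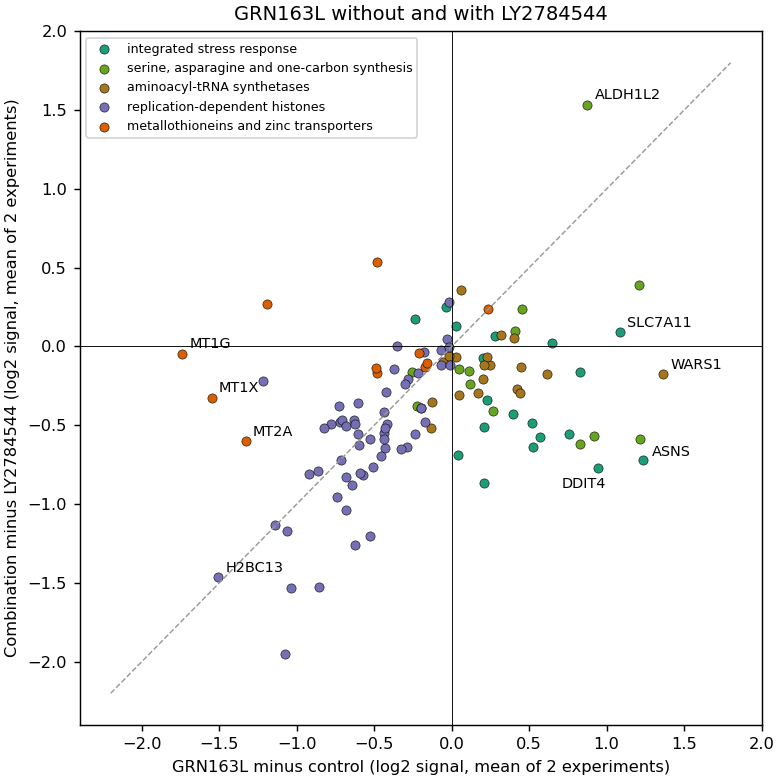
Mean difference between GRN163L and control (horizontal axis, log2 signal) against that between the combination and LY2784544 (vertical axis, log2 signal) for the genes of 5 lists, with a dashed line of equality. Histones lie near the line in the lower left, MT1G (-1.74, -0.045) and MT1X (-1.55, -0.325) lie far to the left, and ASNS, DDIT4 and WARS1 lie right and below 0, with ALDH1L2 at the upper right.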

How the data were processed

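Expression was measured on 8 Affymetrix gene arrays of HEL cells. The authors deposited 1 table of log2 RMA values per probe set, made in Affymetrix Expression Console per the submitters' processing notes. The program's version is not given in the sources used here, and the log base was taken from the range of the values. RMA corrects background, equalizes the distributions of the arrays and summarizes probes, so a shift common to all genes is removed. No counts lie behind the values, and the number of arrays limits the precision.

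The platform annotation gave 1 gene to 19181 of 33297 probe sets, several to 2055 and none to 12061. Symbols were checked against RefSeq, where 19143 matched. A model of the 4 groups was fitted to all 8 arrays with limma 3.58.1 in R 4.3.3, with Benjamini-Hochberg adjustment over all 19181 probe sets. Its contrasts were GRN163L minus control, and the interaction. Tables and figures were made with Python 3.11.15, pandas 2.3.3, numpy 2.4.6 and matplotlib 3.10.9. Tested on simulated data over 19181 probe sets for GRN163L against control, the fit called 51 of 100 probe sets made to differ by 1 and 90 of 100 made to differ by 2, with 7 false calls. The simulated noise was normal and independent between arrays, without the correlation within an experiment given below. These counts therefore need not hold for the real arrays, where 0 probe sets passed.

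The labels number the experiments, which pairs the arrays. Deviations of arrays of 1 experiment correlated with r = 0.0686 for GRN163L and control, and between 0.0878 and 0.613 for the other pairs of groups. With the experiment as a block, 0 probe sets passed and 1303 had an unadjusted p below 0.05.

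The gene lists and the members were chosen with earlier results of these data known. Genes were named by rule: the 12 probe sets furthest from control in each direction by the smaller of their 2 within-experiment differences, above the 30th percentile of level; the 3 smallest p in each direction; genes passing a named fit; up to 5 members of each described list by p; and TERC, TERT and JAK2. A gene with several probe sets is given by the brightest. ATF3, TRIB3, ATF4, DDIT3, CHAC1, PHGDH, CBS, SHMT1, ALDH18A1, SLC39A10, SLC30A1, MT3, GATA1, the dim or bright histone genes near control, the small RNAs and the genes of the last observations were named after their values were seen. Other filters on level, 1 probe set per gene, all probe sets of the table, the block and each array left out were tried as alternatives.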

Additional observations from a re-analysis of the deposited data

Results flagged for a closer look

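The difference between the combination and LY2784544 was set against that between GRN163L and control by an interaction term in limma, and 6 probe sets of 4 genes passed an adjusted p of 0.05. For UCA1, a long noncoding RNA, the interaction was -1.90 (adjusted p = 0.0442). Its signal was 4.13 and 4.37 with GRN163L, 4.35 and 4.36 with the combination, 6.57 and 6.77 with LY2784544, and 4.63 and 4.70 in control. GALNT5, a glycosyltransferase of mucin-type glycans, had an interaction of -2.505 (adjusted p = 0.0423), with 3.37 and 3.82 with GRN163L, 3.63 and 3.63 with the combination, 6.11 and 6.27 with LY2784544, and 3.71 and 3.59 in control. CDH12, a cadherin, had an interaction of -3.195 (adjusted p = 0.0423), with 3.48 and 3.47 with GRN163L, 3.16 and 3.88 with the combination, 6.74 and 6.83 with LY2784544, and 3.68 and 3.41 in control. In these 3 genes the LY2784544 arrays alone were high.

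HLA-DRA, the alpha chain of an MHC class II molecule, had 3 near-identical probe sets with interactions of -2.46, -2.905 and -2.535. One of them read 7.45 and 7.97 with GRN163L, 5.77 and 6.23 with the combination, 8.72 and 8.52 with LY2784544, and 7.50 and 7.35 in control. The combination was the lowest group there. With a filter at the 30th or the 50th percentile of level, 0 probe sets passed for the interaction.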

How the results depend on the processing

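With limma, 0 probe sets passed an adjusted p of 0.05 under each filter, probe set choice, block and left-out array, and the fit of 4 arrays with 1 probe set per gene above the 30th percentile of level, chosen after seeing the data, gave 6. Against 807 probe sets with an unadjusted p below 0.05, there were 1303 with experiment as a block (the replicate block), 469 above the 50th percentile of level and 1406 over all probe sets of the table. The count ranged between 458 and 1247 as each array was left out. The interaction passed in 6 probe sets, but in 0 above the 30th and 0 above the 50th percentile. Over all probe sets of the table, 78 were 2-fold apart in both experiments, against 27, and 727 were 0.5 apart, against 271. The correlation of 0.140 between experiments became 0.188 and 0.288 above the 30th and 50th percentiles, 0.173 with 1 probe set per gene above the 30th percentile and 0.0953 over the whole table.

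List medians moved too. The metallothionein median of -0.49 was -0.8425 and -1.31 above the 30th and 50th percentiles, and that of the integrated stress response was 0.455 and 0.52 there and 0.515 with 1 probe set per gene above the 30th percentile. Hypoxia came to -0.275 with 1 median per array, and p53 targets to 0.0625 above the 30th percentile, with all probe sets or with 1 per gene. Leaving out each array gave -0.725 to -0.47 for metallothioneins, 0.3325 to 0.4725 for the integrated stress response, -0.285 to 0.10 for DNA replication, -0.26 to -0.115 for mitosis, -0.76 to -0.15 for MAPK genes, -0.355 to -0.0975 for hypoxia, 0.01 to 0.085 for p53 targets, -0.235 to -0.09 for NRF2 targets, -0.26 to 0.14 for globins and -0.125 to 0.01 for megakaryocyte genes. Among the 1402 alternatives of the 118 named probe sets, 6 passed the threshold, all in that 4-array fit, and 2 had the other sign. The cause of these moves was not tested, apart from filters and the left-out arrays changing what is counted. With 2 arrays a group, dim probe sets carry the least information.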

Other observations

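Noncoding transcripts made up an uneven share of the genes that differed by at least 0.5 in both experiments. Of the 127 higher probe sets, 29 (22.8%) were long noncoding RNAs, against 3.06% of all probe sets of 1 gene, and 20 of these 29 belong to LINC00965, which has 26 probe sets and near-identical copies. Of the 144 lower probe sets, 5 (3.47%) were spliceosomal small nuclear RNAs, against 0.130% of all. RNU2-1, the U2 RNA of the spliceosome, was at 7.74 and 7.74 with GRN163L, against 8.53 and 8.50 in control. RNU5A-1, a U5 RNA, was at 4.55 and 4.31 with GRN163L, against 5.30 and 5.08 in control, and RNU11, of the minor spliceosome, at 7.03 and 7.63 with GRN163L, against 7.53 and 8.31 in control. The groups of RNU2-1 and RNU5A-1 did not overlap, whereas those of RNU11 did. Small nuclear RNAs have many copies in the genome, so the locus is uncertain.

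MIR21, the gene of a microRNA abundant in leukaemia, was at 6.50 and 6.26 with GRN163L, against 7.86 and 7.06 in control. The small nucleolar RNA SNORA23 went the other way, at 10.53 and 10.55 with GRN163L, against 9.84 and 9.38 in control. Neither gene's groups overlapped.

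CD34, a surface protein of blood progenitors, was at 5.75 and 6.43 with GRN163L, against 7.41 and 7.13 in control (-1.18). Between the combination and LY2784544 it differed by -2.75 and -2.06. The list of blood progenitor factors that holds CD34 had a median of -0.015. Of its 19 probe sets, 5 were higher and 4 lower in both experiments. CTSG, a protease of granulocyte granules, was at 4.68 and 5.05 with GRN163L, against 4.09 and 3.87 in control (0.885). The list of monocyte, macrophage and neutrophil markers that holds CTSG had a median of 0.05, and its lowest difference was -0.965. Of its 20 probe sets, 5 were higher and 2 lower in both experiments. The shares over all probe sets were 25.6% and 22.4%.

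A few inducible heat shock genes were low in the control of experiment 2, while the list of 17 heat shock and chaperone probe sets had a median difference of 0.12, with 7 higher and 4 lower in both experiments (25.6% and 22.4% of all probe sets). HSPA1A, an inducible HSP70, was at 11.04 and 10.81 with GRN163L, against 10.72 and 8.28 in control. DNAJB1, its cochaperone, was at 10.98 and 11.09 with GRN163L, against 10.78 and 9.32 in control. The control of experiment 2 was the lowest of the 4 arrays for both genes, and for HSPA6 and RGS2 as well. For these genes the 4 arrays with LY2784544, alone or combined, lay nearer to that control than to the control of experiment 1. HSPA1A was at 9.06 and 8.59 with LY2784544, and at 8.74 and 7.99 with the combination. The part of either control array in the differences of those genes was not tested.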
